A study of Homo sapiens with 12 samples.

Results

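The collagen genes were taken as every row of the deposited gene count table whose HGNC symbol has the form COL, a number, A and a number, which gave 44 of 60623 genes, on 17 chromosomes. The table came from poly(A) RNA sequencing of 4 sublines of A549, an established human lung adenocarcinoma line, with 3 libraries from each. V carried the empty vector, WT carried HA-tagged wild-type AHR, SA carried AHR with the S489A change and SD carried AHR with the S489D change. AHR is the aryl hydrocarbon receptor, a ligand-activated transcription factor, and the changed serine is the one the study places under the kinase PLK1. Alanine in its place (S489A) cannot be phosphorylated, and aspartate (S489D) puts an acidic residue there. All 4 sublines were made with a lentiviral vector with an EF1a promoter and hygromycin selection, and each construct is represented by 1 line, so that a difference between constructs and a difference between lines cannot be told apart. The labels call the 3 libraries of a line biological replicates and do not say whether they came from separate cultures, so p-values measure the spread between these libraries.

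Collagens are secreted or membrane-anchored proteins built from 3 chains wound into a triple helix, held close by the small residue glycine at regular steps. Fibrillar collagens form the rope-like fibrils of connective tissue, collagen IV forms the sheet-like network of basement membranes on which epithelial cells rest, and the remaining classes bead, anchor or decorate these structures or span the cell membrane. In the lung most fibrillar collagen is made by fibroblasts, while epithelial cells contribute to the basement membrane.

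Each library held between 7844045 and 11765576 counts, so that 3 counts corresponded to 0.255 to 0.382 counts per 1000000 counts of the library (CPM). AHR had mean levels of 69.1 CPM in V and 266 in WT, with 223 in SA and 210 in SD. Keratin genes KRT7, KRT8 and KRT18 were abundant in all 12 libraries, with KRT8 at 2359 CPM or more, while the lung lineage factor NKX2-1 reached 0.206 CPM at most and the epithelial adhesion gene EPCAM 1.75 CPM at most. The fibroblast genes DCN, PDPN and FAP had 0 counts in every library, and the summed level of 8 fibroblast markers was 14.9 to 24.3 CPM, nearly all of it ACTA2. The 4 endothelial markers summed to 0.316 CPM at most, and the leukocyte gene PTPRC reached 0.171 CPM at most. The 4 leukocyte markers summed to 21.7 to 28.4 CPM in V and 28.1 to 36.7 CPM over the lines with AHR, nearly all of it CD68 (mean 25.7 CPM in V and 29.4 to 32.9 with AHR). The summed level of 8 lung epithelial markers was 7630 to 8029 CPM in V and 6430 to 6527 in WT, with 6234 to 6386 in SA and 5783 to 6077 in SD. Nearly all of this sum came from KRT7, KRT8 and KRT18, and other members did not follow its order. MUC1 had a mean of 7.36 CPM in V against 10.3 in SD, and NAPSA 3.32 against 3.76. CDH1 fell from a mean of 170 CPM in V to 126 in SD, but WT and SA were lower still, at 112 each. The part of the leukocyte or the epithelial list in the differences against V given here was not tested. In RNA from whole cultures, fewer cells expressing a gene and less RNA per cell cannot be told apart.

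The start regions of the collagen genes that the results turn on are given first, because AHR and its partner ARNT bind DNA through a core of GCGTG, and because 3 pairs of collagen IV genes are arranged head to head. Promoter windows of 300 bases, from 250 before to 50 after an annotated start, were taken from RefSeq (GRCh38.p14) and were found for 17 of the 20 collagen genes that could be tested, as 23 windows. The windows of COL12A1 and COL13A1 are shown with the core in capitals, where CACGC is GCGTG on the opposite strand, each 5′ to 3′ on the gene's own strand.
COL12A1, chr6:75206004-75206303, minus strand: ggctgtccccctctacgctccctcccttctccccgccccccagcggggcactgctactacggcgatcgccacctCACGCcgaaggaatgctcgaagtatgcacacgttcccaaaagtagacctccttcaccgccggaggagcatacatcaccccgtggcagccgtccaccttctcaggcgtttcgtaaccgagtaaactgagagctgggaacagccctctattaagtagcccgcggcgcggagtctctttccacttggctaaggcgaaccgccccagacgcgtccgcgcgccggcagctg
COL13A1, chr10:69801656-69801955, plus strand: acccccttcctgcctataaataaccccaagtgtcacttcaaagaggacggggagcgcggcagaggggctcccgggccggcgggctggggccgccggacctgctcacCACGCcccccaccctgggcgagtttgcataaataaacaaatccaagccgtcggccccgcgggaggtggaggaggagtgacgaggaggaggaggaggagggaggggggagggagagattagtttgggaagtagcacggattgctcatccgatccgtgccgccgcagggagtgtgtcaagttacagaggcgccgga
Each of these windows held 1 core. The core, on either strand, was found in 8 of the 23 windows (34.8%), against 36.5% of all 35116 windows, and in at least 1 window of 7 of the 17 genes. The share of all genes with a core in at least 1 window was not computed. Besides the genes shown, the collagen genes with a core were COL18A1, COL4A2, COL11A2, COL16A1 and COL26A1. In the comparisons further on, COL18A1 was called only as lower and COL4A2, COL11A2, COL16A1 and COL26A1 were not called. COL17A1, COL4A1, COL4A4, COL4A5, COL4A6, COL5A1 and COL6A2 were called and held no core in their windows. No window was found for COL1A1, COL5A2 and COL6A1, which were also called, so they were not scanned. The longer motif TNGCGTG, which contains the core, was found on neither strand in any of the 23 windows, against 5.51% of all windows. The median GC content was 66.3% in the collagen windows and 58.7% in all windows. These are matches of letters in a short window and carry no information on binding.

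In the 3 head-to-head pairs the windows of the partner genes overlap, and the shared stretches are shown on the plus strand, as a guide to the values of collagen IV given further on.
COL4A1 and COL4A2, chr13:110307108-110307333: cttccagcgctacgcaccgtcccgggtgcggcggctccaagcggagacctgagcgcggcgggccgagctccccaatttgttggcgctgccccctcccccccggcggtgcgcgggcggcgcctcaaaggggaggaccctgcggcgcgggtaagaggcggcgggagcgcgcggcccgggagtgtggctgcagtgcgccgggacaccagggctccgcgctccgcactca
COL4A4 and COL4A3, chr2:227164374-227164455: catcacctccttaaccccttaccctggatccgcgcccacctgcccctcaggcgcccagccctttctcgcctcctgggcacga
COL4A6 and COL4A5, chrX:108439588-108439708: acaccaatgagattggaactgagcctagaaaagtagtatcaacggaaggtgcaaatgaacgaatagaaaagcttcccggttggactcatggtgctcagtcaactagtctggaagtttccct
None of these 3 stretches held a core on either strand, so they carry no capitals. As the deposited table gives the gene ends (GRCh38), COL4A1 and COL4A2 overlap by 1346 bases, COL4A4 and COL4A3 are 111 bases apart, and COL4A6 and COL4A5 are 346 bases apart. These are outermost gene ends, and that of COL4A2 (110305812) lies before its RefSeq window (110307034 to 110307333), so the 2 annotations differ for this pair.

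Of the 44 collagen genes, 20 passed the filter on low counts in all 6 comparisons of lines and 24 passed in none. Compared per kilobase of the canonical transcript, COL18A1 had the highest mean level over the 12 libraries (126 CPM per kb), followed by COL4A2 (97.0), COL5A2 (41.7), COL4A1 (37.5), COL7A1 (32.9) and COL5A1 (25.4). COL6A1 (24.7 CPM per kb) and COL6A2 (23.6) were close behind, and the ranges over libraries overlapped between COL18A1 and COL4A2 and between neighbours from COL5A2 to COL6A2. The least abundant gene tested was COL17A1, at 0.348 CPM per kb. COL18A1, COL4A2 and COL7A1 together made up 54.4 to 60.5% of collagen CPM in a library, and with COL5A2, COL4A1 and COL5A1 added the share was 82.2 to 87.1%. These 6 genes encode collagens of basement membranes and their attachments and the fibrillar collagen V.

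Several collagen genes typical of connective tissue or cartilage were at or near 0 counts. COL1A2, the partner chain of COL1A1 in collagen I, had 0 counts in all 12 libraries, as did COL2A1, COL6A5, COL11A1 and COL19A1. The other 19 had at most 14 counts in any library, and COL9A3 led them at 0.279 CPM per kb. Among these were COL3A1, COL5A3 and COL24A1 of the fibrillar class, COL6A3 and COL6A6 of collagen VI, all 3 short-chain network collagens (COL8A1, COL8A2 and COL10A1), the transmembrane collagens COL23A1 and COL25A1, and COL15A1, the relative of COL18A1. The rest were COL28A1 and the fibril-associated collagens COL9A1, COL9A2, COL14A1, COL20A1, COL21A1 and COL22A1. The deposited expected counts of the 44 genes were exactly whole (tolerance 0) in all 528 values.

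**Figure D1:**
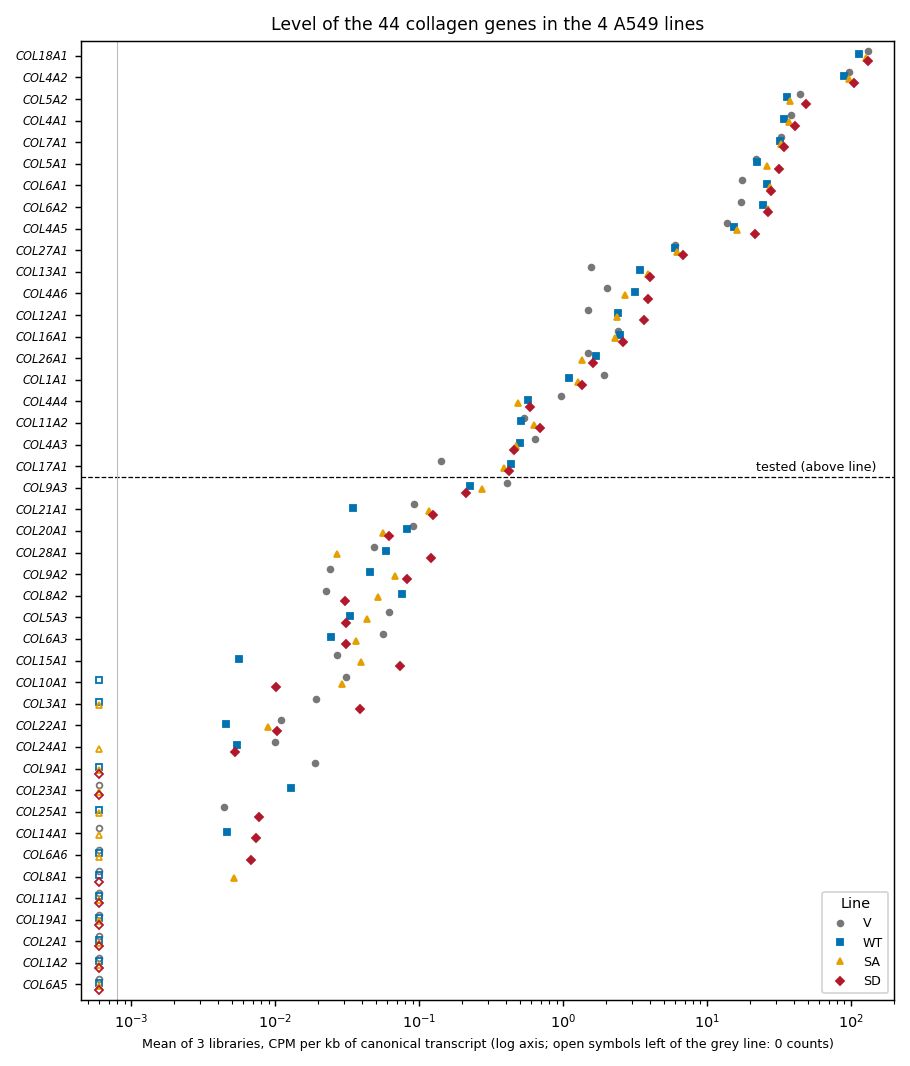
Mean level of each of the 44 collagen genes in the V, WT, SA and SD lines (mean of 3 libraries, CPM per kb of canonical transcript, log axis), ordered by the mean over all 12 libraries. The 20 genes above the dashed line were tested, from COL18A1 at 126 down to COL17A1 at 0.348 CPM per kb, and open symbols left of the grey line are lines with 0 counts.

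The summed level of all 44 genes was 2810, 2760 and 2611 CPM in V and 2757, 2518 and 2490 in WT, with 3141, 2617 and 2655 in SA and 3371, 3005 and 2893 in SD (replicates 1 to 3), or 0.249 to 0.337% of a library. The SD libraries lay above all V and WT libraries and overlapped with SA, whose replicate 1 was the second highest of all. Replicate 1 had the highest sum in every line. No test was made of the sum.

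The 20 genes were compared between every pair of lines with the quasi-likelihood test of edgeR, which gives a log2 fold change and an F statistic. The standard error (SE) was derived from these, as the size of the log2 fold change divided by the square root of F. A gene was called where its p, adjusted over all genes tested, was under 0.05. SD against WT sets the line with the acidic residue against the line with wild-type AHR. SD against SA sets it against the line with the residue that cannot be phosphorylated. In SD against WT, 4 collagen genes were higher (COL12A1, COL4A5, COL5A1 and COL5A2) and 0 were lower, while over all 14828 genes tested 0.513% were called higher and 0.196% lower. The median log2 fold change was 0.21 over the 20 collagen genes and -0.0008 over all genes. In SD against SA, 4 were higher (COL12A1, COL4A5, COL4A6 and COL5A2) and 0 were lower, against 0.16% called higher and 0.0599% called lower of 15030 genes, with medians of 0.14 and 0.0007. These comparisons share the SD libraries. With every gene of at least 1 count tested, the SD against WT count was 7. The SD against SA count was 0 without SA replicate 2, SA replicate 3, SD replicate 1 or SD replicate 2. By the quasi-likelihood test 0 collagen genes were called in WT against SA, where 0.0803% of 14942 genes were called in either direction. In that comparison 3 of the 20 collagen genes (COL4A2, COL5A1 and COL18A1) had an unadjusted p under 0.05, as did 1093 of all 14942 genes. DESeq2 called 0 collagen genes there. The quasi-likelihood test with every gene of at least 1 count called 2 (COL5A1 and COL18A1, both lower in WT). Log2 fold changes of the collagen genes there ran from -0.30 for COL11A2 to 0.31 for COL26A1. Over all genes, every SD library lay above every WT library for 1237 of 14828 and below for 1133. The numbers were 1025 and 1026 of 15030 in SD against SA and 974 and 946 of 14942 in WT against SA.

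The comparisons with V set each line with overexpressed AHR against the line with the empty vector. These 3 comparisons share the V libraries. Over all genes, every WT library lay above every V library for 1637 of 14772 and below for 1593. The numbers were 1834 and 1711 of 14913 in SA against V and 1600 and 1592 of 14890 in SD against V. In WT against V, 6 collagen genes were higher and 5 lower, against 2.31% called higher and 2.93% called lower of 14772 genes, and the median log2 fold change was 0.02 (0.0018 over all genes). In SA against V, 8 were higher and 3 lower, against 3.88% and 3.29% of 14913 genes, with medians of 0.04 and -0.0024. In SD against V, 8 were higher and 1 was lower, against 2.92% and 2.49% of 14890 genes, with medians of 0.17 and 0.0030. COL17A1 is among the genes called higher in each of these comparisons but reached the count filter only through the line with AHR, where it is high, and without it the genes called higher numbered 5 in WT, 7 in SA and 7 in SD. Without V replicate 1 the collagen genes called numbered 6 in WT against V and 7 in SA against V, and in SA against V they numbered 7 without V replicate 2 and 6 without SA replicate 2. The collagen genes called in at least 1 of the 6 comparisons are taken here by class, with the other tested genes named beside them. How many of all genes were called at least once was not counted, so no share can be set beside their number.

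**Figure D2:**
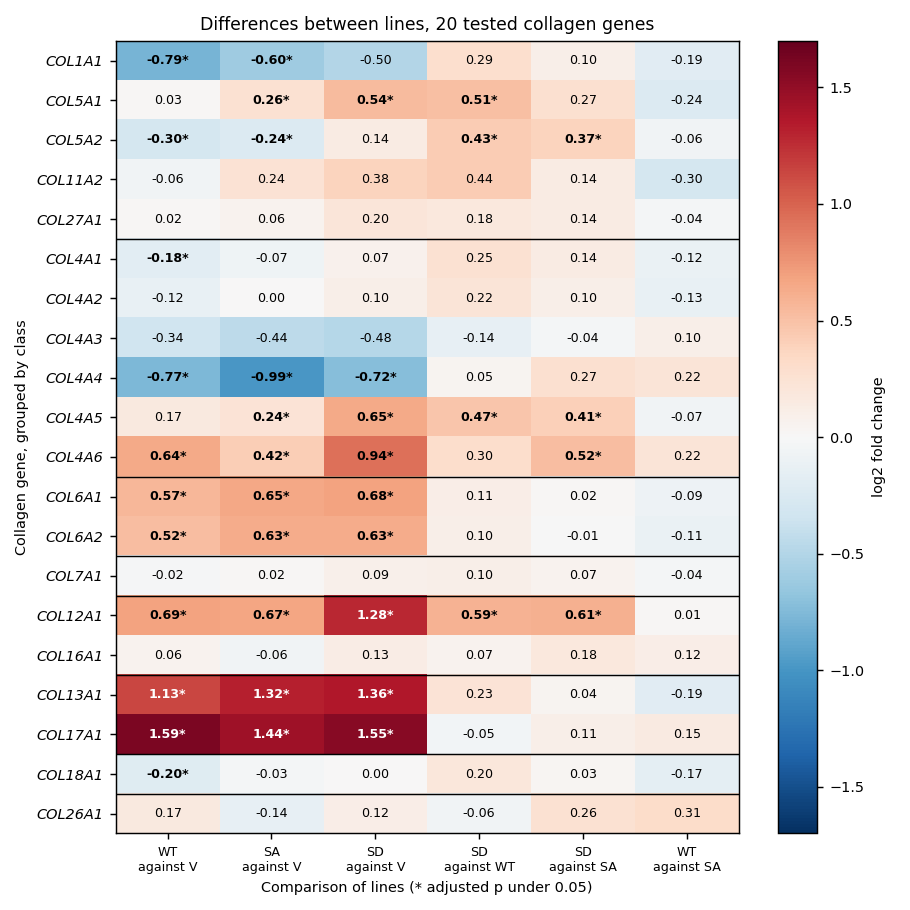
Log2 fold change of the 20 tested collagen genes (rows, grouped by class) in the 6 comparisons of lines (columns), red for higher and blue for lower in the first-named line; an asterisk marks an adjusted p under 0.05. The SD against WT and SD against SA columns hold 4 marked genes each, all higher, and the WT against SA column holds 0.

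Collagen XII was called higher in each line with AHR than in V, and higher in SD than in WT or SA. COL12A1 (ENSG00000111799, chr6:75084326-75206053, minus strand) encodes a fibril-associated collagen that sits on the surface of collagen I fibrils and links them to other matrix. Its level was 21.8, 15.5 and 15.1 CPM in V, 31.8, 28.9 and 24.3 in WT, 30.5, 29.1 and 24.4 in SA, and 47.3, 44.2 and 36.3 in SD. All SD libraries lay above every other library, all V libraries lay below every other library, and WT and SA overlapped. The log2 fold change was 0.69 (SE 0.13, adjusted p = 0.000681) in WT against V, 0.67 (SE 0.12, adjusted p = 0.000705) in SA against V and 1.28 (SE 0.12, adjusted p = 6.6e-08) in SD against V, or 2.43-fold for SD. It was 0.59 (SE 0.11, adjusted p = 0.00626) in SD against WT and 0.61 (SE 0.11, adjusted p = 0.0126) in SD against SA. The 3 calls against V held with any single library left out. The SD against WT call was lost without WT replicate 3 (adjusted p = 0.0573), and the SD against SA call was lost without SA replicate 2 (0.0617), SA replicate 3 (0.0793), SD replicate 1 (0.0523) or SD replicate 2 (0.0647). COL16A1, the other fibril-associated collagen tested, lay at 10.9 to 15.6 CPM over the 12 libraries and was called in no comparison, with log2 fold changes of -0.06 to 0.18.

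Of the transmembrane collagens, COL13A1 was called higher in every line with AHR than in V, and COL17A1 was too scarce in V to pass the count filter there. COL13A1 (ENSG00000197467, chr10:69801867-69964275, plus strand) encodes a membrane-spanning collagen found at cell adhesions. Its level was 4.94, 4.88 and 4.94 CPM in V, 10.9, 10.0 and 11.6 in WT, 12.9, 9.90 and 14.1 in SA, and 13.01, 13.1 and 11.9 in SD. The standard deviation over the V libraries was 0.0347 CPM, and all of them lay below the lowest library with AHR, while WT, SA and SD lay close together. COL13A1 rose against V, with log2 fold changes of 1.13 (SE 0.19, adjusted p = 0.000159) in WT, 1.32 (SE 0.19, adjusted p = 2.16e-05) in SA and 1.36 (SE 0.17, adjusted p = 5.35e-06) in SD, and each call held with any library left out. Between the lines with AHR the log2 fold changes were -0.19 to 0.23 and none was called.

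COL17A1 (ENSG00000065618, chr10:104031286-104085880, minus strand) encodes the collagen of hemidesmosomes, the junctions that fix epithelial cells to the basement membrane. It was scarce, with 10, 5 and 8 counts in V and 24, 29 and 16 in WT, with 18, 25 and 30 in SA and 26, 15 and 32 in SD. As levels these were 1.03, 0.531 and 0.842 CPM in V, 3.05, 2.54 and 1.78 in WT, 1.80, 2.13 and 2.65 in SA, and 2.60, 1.61 and 2.85 in SD. No V library reached the lowest library with AHR, and the 3 lines with AHR overlapped. The filter asked for 3 libraries past 1.01 to 1.06 CPM before scaling, which 0 V libraries reached in the WT and SD comparisons and 1 in the SA comparison. The gene was therefore tested only because it is high with AHR, and its fold changes are given as a description. The log2 fold change against V was 1.59 (SE 0.43, adjusted p = 0.023) in WT, 1.44 (SE 0.43, adjusted p = 0.0361) in SA and 1.55 (SE 0.43, adjusted p = 0.0299) in SD. No call held with every library left out in turn. The WT call was lost without any V replicate (adjusted p of 0.0636, 0.116 and 0.077 without V replicates 1, 2 and 3), without WT replicate 1 (0.122) or without WT replicate 2 (0.0856), and with a replicate block (0.0547). The SA call was lost without V replicates 1, 2 or 3 (0.078, 0.147 and 0.107), SA replicate 2 (0.0945) or SA replicate 3 (0.177). The SD call was lost without V replicates 1, 2 or 3 (0.0642, 0.143 and 0.103), SD replicate 1 (0.088) or SD replicate 3 (0.14), and under DESeq2 the SA and SD calls were lost (0.0767 and 0.0588).

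**Figure D3:**
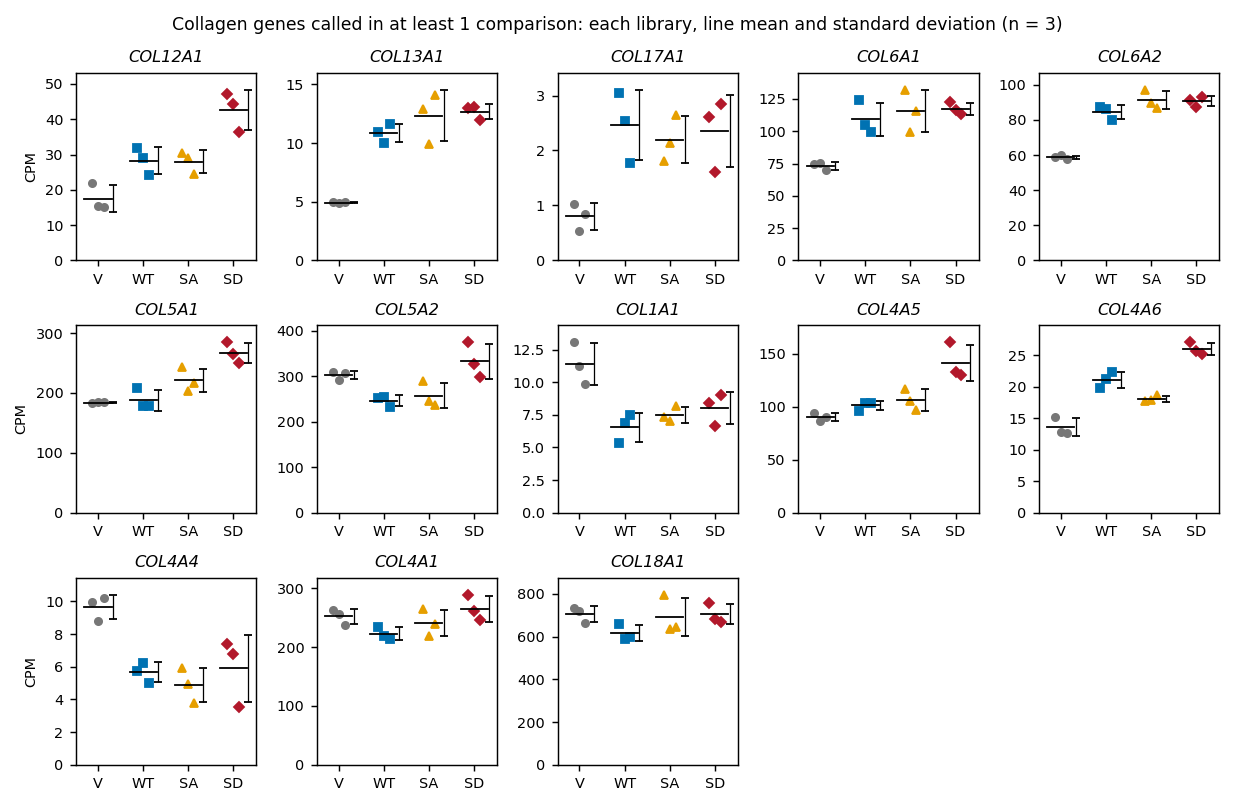
Level (CPM, linear axes from 0) of the 13 collagen genes called in at least 1 comparison, in each of the 3 libraries of V, WT, SA and SD, with horizontal bars for line means and error bars for the standard deviation. COL12A1, COL4A5, COL4A6 and COL5A1 show the SD libraries above all others. V lay below all others for COL12A1, COL13A1, COL17A1, COL4A5, COL4A6, COL6A1 and COL6A2, and above all others for COL4A4 and COL1A1. COL17A1 passed the count filter only through the lines with AHR. How often a line lay apart from all others over all genes was not counted.

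Collagen VI forms beaded microfibrils near the cell surface, and the genes of its first pair of chains rose in every line with AHR. COL6A1 (ENSG00000142156, chr21:45981737-46005050, plus strand) stood at 75.0, 75.4 and 69.7 CPM in V, 124, 105 and 99.1 in WT, 132, 99.7 and 116 in SA, and 123, 116 and 113 in SD. COL6A2 (ENSG00000142173, chr21:46098097-46132849, plus strand) stood at 58.7, 59.7 and 58.0 CPM in V, 87.4, 86.3 and 79.8 in WT, 96.9, 89.7 and 87.0 in SA, and 91.5, 87.4 and 93.3 in SD. For both genes every V library lay below every library with AHR, and the 3 lines with AHR overlapped. The log2 fold change of COL6A1 against V was 0.57 (SE 0.07, adjusted p = 2.5e-06) in WT, 0.65 (SE 0.08, adjusted p = 1.35e-06) in SA and 0.68 (SE 0.06, adjusted p = 5.45e-08) in SD. That of COL6A2 was 0.52 (SE 0.07, adjusted p = 2.93e-06), 0.63 (SE 0.07, adjusted p = 2.49e-07) and 0.63 (SE 0.07, adjusted p = 3.43e-07) in the same order, and all these calls held with any library left out. COL6A3, which encodes the third chain of the usual collagen VI molecule, had at most 8 counts in any library and 0 in 1 WT library, so that a difference was not detectable at this depth.

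Collagen V, a fibrillar collagen that co-assembles with collagen I and helps to start its fibrils, had its chains called in different comparisons. COL5A1 (ENSG00000130635, chr9:134641774-134844843, plus strand) lay at 183, 184 and 184 CPM in V and 208, 178 and 178 in WT, with 243, 204 and 217 in SA and 285, 265 and 250.04 in SD. All SD libraries were above all others, all SA libraries were above V, and WT overlapped V and SA. COL5A1 rose with log2 fold changes of 0.54 (SE 0.06, adjusted p = 3.77e-07) in SD against V, 0.51 (SE 0.07, adjusted p = 9.21e-05) in SD against WT and 0.26 (SE 0.06, adjusted p = 0.0038) in SA against V, calls that held with any library left out. WT against V gave 0.03 (SE 0.05, adjusted p = 0.867), SD against SA gave 0.27 (SE 0.07, adjusted p = 0.129), and WT against SA gave -0.24 (SE 0.07, adjusted p = 0.28). The SD against SA difference was called without SA replicate 1 (adjusted p = 0.0147). With every gene of at least 1 count tested, both the SD against SA and the WT against SA differences were called (0.00526 and 0.00378).

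COL5A2 (ENSG00000204262, chr2:189031898-189225312, minus strand) lay at 310.5, 292 and 306 CPM in V and 252, 254 and 233 in WT, with 289, 246 and 237 in SA and 375, 327 and 298.5 in SD. The WT and SA libraries all lay below V, and the SD libraries lay above WT and SA and overlapped V. COL5A2 fell in WT against V, with a log2 fold change of -0.30 (SE 0.05, adjusted p = 8.51e-05), and in SA against V, with -0.24 (SE 0.06, adjusted p = 0.0113). It was higher in SD than in WT by 0.43 on the log2 scale (SE 0.07, adjusted p = 0.000982) and than in SA by 0.37 (SE 0.08, adjusted p = 0.048), and SD against V gave 0.14 (SE 0.06, adjusted p = 0.262). The WT against V and SD against WT calls held with any library left out. The SA against V call was lost without V replicate 1 (adjusted p = 0.076), SA replicate 2 (0.09) or SA replicate 3 (0.12). The SD against SA call was lost without SA replicate 2 (0.31), SA replicate 3 (0.287), SD replicate 1 (0.157) or SD replicate 2 (0.165) and under DESeq2 (0.342), and without SD replicate 3 the SD against V difference was called (0.0398).

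The ratio of COL5A1 to COL5A2, each per kilobase, was 0.477 to 0.510 in V, 0.566 to 0.666 in WT, 0.670 to 0.739 in SA and 0.614 to 0.678 in SD. The V libraries were all below the 9 libraries with AHR. For the other chain pairs that were followed, the ratio of COL6A1 to COL6A2 was 0.911 to 1.16 over all 12 libraries and that of COL4A1 to COL4A2 was 0.364 to 0.409, with all lines overlapping in both. The ratio of COL4A5 to COL4A6 was 6.33 to 7.30 in V, 4.75 to 5.02 in WT, 5.32 to 6.74 in SA and 5.27 to 6.08 in SD, so that WT lay below V, SA and SD. The ratio of COL4A3 to COL4A4 was 0.629 to 0.691 in V and 0.580 to 1.34 over the other lines, on 21 to 97 counts a library. No test was made of these ratios.

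**Figure D4:**
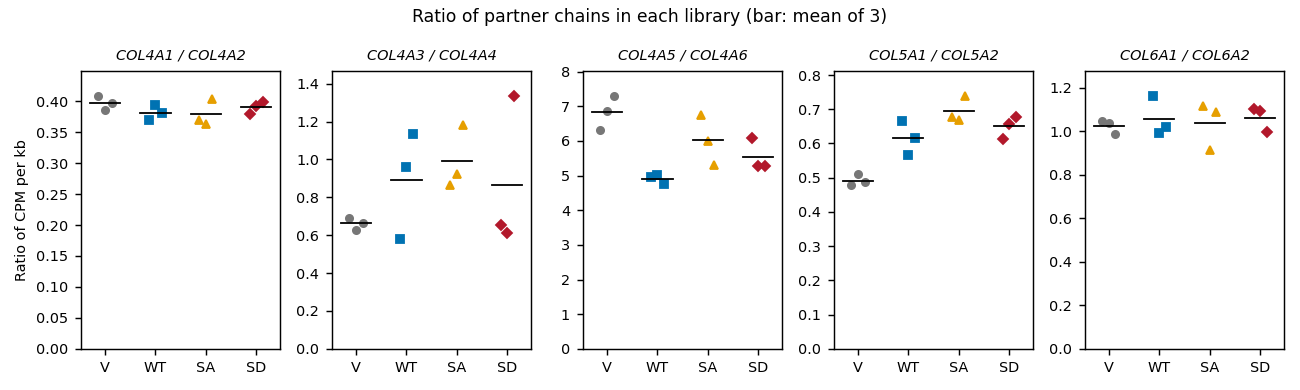
Ratio of the CPM per kb of partner chains (linear axes from 0) in each of the 3 libraries of V, WT, SA and SD, with horizontal bars for line means. COL5A1 to COL5A2 was 0.477 to 0.510 in V and 0.566 to 0.739 in the 9 libraries with AHR, while COL6A1 to COL6A2 and COL4A1 to COL4A2 overlapped in all lines.

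Collagen I, the main fibrillar collagen of connective tissue, was represented by COL1A1 alone (ENSG00000108821, chr17:50183289-50201632, minus strand), at 13.1, 11.2 and 9.89 CPM in V, 5.34, 6.84 and 7.46 in WT, 7.31, 7.001 and 8.21 in SA, and 8.41, 6.65 and 8.997 in SD. Every V library was above every library with AHR, and the 3 lines with AHR overlapped. COL1A1 fell in WT against V, with a log2 fold change of -0.79 (SE 0.18, adjusted p = 0.00649), and in SA against V, with -0.60 (SE 0.17, adjusted p = 0.0278), while SD against V gave -0.50 (SE 0.17, adjusted p = 0.0928). The WT call was lost without V replicate 1 (adjusted p = 0.0728), and the SA call was lost without V replicate 1 (0.181), V replicate 2 (0.0577), SA replicate 1 (0.0566) or SA replicate 2 (0.109). The remaining fibrillar collagens tested were called in no comparison. COL27A1, a fibrillar collagen best known from cartilage, lay at 45.2 to 50.8 CPM in V, WT and SA and at 51.6 to 55.5 CPM in SD, above all others, with a log2 fold change of 0.18 (SE 0.08, adjusted p = 0.369) in SD against WT and 0.20 (SE 0.08, adjusted p = 0.137) in SD against V. COL11A2, a chain of the cartilage collagen XI, lay at 2.97 to 4.81 CPM over all libraries.

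Collagen IV is encoded by 3 head-to-head gene pairs, which are taken here in turn. The first pair encodes the chains of the collagen IV network found in nearly all basement membranes. COL4A1 (ENSG00000187498, chr13:110148963-110307157, minus strand) lay at 263, 256 and 238 CPM in V and 235, 219 and 213 in WT, with 264, 219 and 239 in SA and 289, 261 and 246 in SD. COL4A2 (ENSG00000134871, chr13:110305812-110513209, plus strand) lay at 633.9, 654 and 590.2 CPM in V and 625, 549.3 and 552 in WT, with 704, 595 and 585 in SA and 752, 655 and 607 in SD. For COL4A1 all WT libraries lay below V and SD, while for COL4A2 every pair of lines overlapped. COL4A1 fell in WT against V, by 0.18 on the log2 scale (SE 0.05, adjusted p = 0.0264), a call lost without V replicate 1 (adjusted p = 0.189), V replicate 2 (0.084), WT replicate 2 (0.0923) or WT replicate 3 (0.171) and in a single fit of all 12 libraries (0.14). In SD against WT, COL4A1 gave 0.25 (SE 0.06, adjusted p = 0.0548) and COL4A2 gave 0.22 (SE 0.07, adjusted p = 0.162), and both were called without SD replicate 3 (0.00933 and 0.0251) and with every gene of at least 1 count tested (0.00345 and 0.0066). COL4A1 was also called there under DESeq2 (0.0141) and where each library had to hold 10 counts or more (0.0278). With all libraries and the main filter, COL4A2 was called in no comparison.

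The chains of the second pair, COL4A3 and COL4A4, belong to the specialised basement membranes of kidney and lung alveoli. COL4A4 (ENSG00000081052, chr2:227002711-227164453, minus strand) lay at 9.98, 8.81 and 10.2 CPM in V, 5.72, 6.23 and 5.01 in WT, 5.91, 4.95 and 3.80 in SA, and 7.41, 6.76 and 3.56 in SD. Every V library was above every library with AHR, and the other lines overlapped. COL4A4 fell against V with log2 fold changes of -0.77 (SE 0.19, adjusted p = 0.0114) in WT, -0.99 (SE 0.20, adjusted p = 0.00187) in SA and -0.72 (SE 0.21, adjusted p = 0.0466) in SD. The SA call held with any library left out, and the WT call was lost without V replicate 1 (0.0564) or WT replicate 3 (0.0671). The SD call was lost without V replicates 1, 2 or 3 (0.138, 0.0751 and 0.158), SD replicate 2 (0.0701) or SD replicate 3 (0.249), under DESeq2 (0.0798), in a single fit of all 12 libraries (0.054) and with a replicate block (0.0616). COL4A3 (ENSG00000169031, chr2:227164565-227314792, plus strand) lay at 4.46 to 5.55 CPM in V, 2.67 to 4.83 in WT, 3.62 to 4.11 in SA and 3.32 to 3.90 in SD, with log2 fold changes of -0.34 (SE 0.26), -0.44 (SE 0.24) and -0.48 (SE 0.24) against V, and was called in no comparison.

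The third pair is on the X chromosome, and its chains assemble with each other in the basement membranes of several epithelia. COL4A5 (ENSG00000188153, chrX:108439844-108697545, plus strand), whose chain also joins those of COL4A3 and COL4A4, lay at 94.1, 85.9 and 90.1 CPM in V, 96.2, 104 and 104 in WT, 117, 105 and 96.8 in SA, and 160, 133 and 130 in SD. All SD libraries were above all others, V was below all others, and WT and SA overlapped. COL4A5 rose with log2 fold changes of 0.65 (SE 0.07, adjusted p = 8.06e-07) in SD against V and 0.47 (SE 0.07, adjusted p = 0.00084) in SD against WT, and both held with any library left out. SD against SA gave 0.41 (SE 0.08, adjusted p = 0.0295), a call lost without SA replicate 2 (0.178), SA replicate 3 (0.211), SD replicate 1 (0.128) or SD replicate 2 (0.0538). SA against V gave 0.24 (SE 0.07, adjusted p = 0.0306), a call lost without V replicates 1, 2 or 3 (0.0509, 0.129 and 0.0852), SA replicate 1 (0.124) or SA replicate 2 (0.0714) and in a single fit of all 12 libraries (0.0669), and WT against V gave 0.17 (SE 0.06, adjusted p = 0.102).

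COL4A6 (ENSG00000197565, chrX:108155607-108439497, minus strand) lay at 15.2, 12.8 and 12.6 CPM in V, 19.8, 21.1 and 22.4 in WT, 17.7, 17.9 and 18.6 in SA, and 27.0, 25.7 and 25.2 in SD. The 4 lines did not overlap, in the order V, SA, WT and SD. COL4A6 rose against V, with log2 fold changes of 0.64 (SE 0.12, adjusted p = 0.00108) in WT and 0.94 (SE 0.12, adjusted p = 4.24e-06) in SD, and both held with any library left out. SA against V gave 0.42 (SE 0.13, adjusted p = 0.0412), a call lost without V replicate 2 (0.119), V replicate 3 (0.158) or SA replicates 1, 2 or 3 (0.0541, 0.0931 and 0.132) and under DESeq2 (0.0975). SD against SA gave 0.52 (SE 0.10, adjusted p = 0.0295), a call lost without SA replicates 1, 2 or 3 (0.0622, 0.163 and 0.0919), SD replicate 1 (0.102) or SD replicate 2 (0.1). SD against WT gave 0.30 (SE 0.10, adjusted p = 0.249) and WT against SA gave 0.22 (SE 0.11, adjusted p = 0.68).

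The collagen gene of highest level per kilobase was lower in WT than in V. COL18A1 (ENSG00000182871, chr21:45405165-45513720, plus strand) encodes the basement membrane collagen whose C-terminal fragment is endostatin. Its level was 734, 718 and 665 CPM in V and 658, 588 and 599.7 in WT, with 797, 635 and 644 in SA and 759.5, 685 and 671 in SD. The WT libraries lay below V and SD, and SA overlapped all lines. COL18A1 fell in WT against V by 0.20 on the log2 scale (SE 0.05, adjusted p = 0.00725), a call lost without V replicate 1 (0.0857), WT replicate 2 (0.0603) or WT replicate 3 (0.0567) and in a single fit of all 12 libraries (0.119), and SD against WT gave 0.20 (SE 0.06, adjusted p = 0.155). The SD against WT difference was called under DESeq2 (0.0495) and with every gene of at least 1 count tested (0.0284). The gene shares 1563 exonic bases with SLC19A1 on the opposite strand, which had at most 1743 counts, and since the strandedness of the libraries was not given in the sources used here, reads from that stretch cannot be told apart.

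COL7A1, which encodes the anchoring fibrils that tie epithelial basement membranes to the tissue beneath (ENSG00000114270, chr3:48564073-48595267, minus strand), lay at 315, 298 and 283 CPM in V and 322, 280.1 and 284.0 in WT, with 342, 278 and 288 in SA and 344, 296 and 311 in SD. All lines overlapped, the log2 fold changes ran from -0.04 to 0.10, with standard errors of 0.05 to 0.07, and none was called. COL26A1, a small and little studied collagen, lay at 3.58 to 5.68 CPM and was called in no comparison.

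Genes that make, process, bind and degrade collagen were followed in 5 lists with 69 members. Of these, 50 passed the filter in at least 1 comparison and 15 were called in at least 1. As for the collagen genes, the number of all genes called at least once was not counted. The 15 therefore have no share of all genes beside them. Over the 5 lists together, 2 were called higher and 0 lower of 50 tested in SD against WT (MMP2 and NID2), 1 higher and 0 lower of 50 in SD against SA (MMP2), and 0 of 50 in WT against SA. In WT against SA, 5 of the 50 had an unadjusted p under 0.05, as did 1093 of all 14942 genes, and DESeq2 called 0 of the 50. Over all genes the shares called higher and lower were 0.513% and 0.196% in SD against WT and 0.16% and 0.0599% in SD against SA, with 0.0803% called in WT against SA. The SD against WT count of 2 was 0 without WT replicate 2, WT replicate 3 or SD replicate 1, 1 without WT replicate 1 or SD replicate 2, and 5 without SD replicate 3, and it was 7 with every gene of at least 1 count tested. The SD against SA count of 1 was 0 without SA replicate 2 or SA replicate 3 and 2 without SA replicate 1, and the WT against SA count was 1 without SA replicate 1. Against V, 5 were higher and 2 lower of 48 in WT, 8 higher and 0 lower of 48 in SA, and 13 higher and 0 lower of 49 in SD. The shares called higher and lower over all genes were 2.31% and 2.93% for WT, 3.88% and 3.29% for SA, and 2.92% and 2.49% for SD. The WT count of 7 was 4 without V replicate 1 or V replicate 2, 3 without WT replicate 3, and 4 in a single fit of all 12 libraries. With a replicate block it was 3. Without SA replicate 1 the SA counts were 8 higher and 3 lower. The SD count of 13 was 9 without V replicate 1 and 10 without V replicate 3. ADAMTS14 and SPARC passed the filter in SD against V only through the SD libraries, and 11 genes were called higher without them. The median log2 fold change of the tested members was 0.13 for SD against WT, 0.09 for SD against SA and -0.03 for WT against SA, and against V it was 0.04 for WT, 0.05 for SA and 0.19 for SD. The medians over all genes lay between -0.0024 and 0.0030.

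Of 5 tested enzymes that degrade collagen, 3 were called higher in SD against V and 0 lower, where 2.92% of all genes were called higher and 2.49% lower. MMP2, the gelatinase that cleaves collagen IV and denatured collagen, stood at 7.51, 6.58 and 8.42 CPM in V, 18.4, 15.01 and 17.4 in WT, 17.7, 14.2 and 15.7 in SA, and 25.3, 23.6 and 24.7 in SD. The SD libraries were above all others, V was below all others, and WT and SA overlapped, the same arrangement as for COL12A1. Its log2 fold change against V was 1.16 (SE 0.15, adjusted p = 6.23e-06) in WT, 1.08 (SE 0.16, adjusted p = 3.28e-05) in SA and 1.71 (SE 0.13, adjusted p = 1.98e-09) in SD. SD against WT gave 0.54 (SE 0.11, adjusted p = 0.0215), a call lost without WT replicate 2 (0.122), WT replicate 3 (0.0652), SD replicate 1 (0.0647) or SD replicate 2 (0.0535), and SD against SA gave 0.63 (SE 0.11, adjusted p = 0.0154), lost without SA replicate 2 (0.163) or SA replicate 3 (0.0682). The lysosomal proteases CTSB and CTSL were higher in SD than in V by 0.36 (adjusted p = 7.78e-05) and 0.28 (adjusted p = 0.00125) on the log2 scale, and in SA by 0.23 each (adjusted p = 0.0051 and 0.0022). In WT against V, CTSB gave 0.14 (adjusted p = 0.0643) and CTSL gave 0.15 (adjusted p = 0.046). This CTSL call was lost in 5 of 6 fits with a library left out.

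Among the genes of processing and cross-linking, LOXL2, a lysyl oxidase that cross-links collagen IV, lay at 278 to 283 CPM in V and 371 to 397 in WT, with 366 to 433 in SA and 366 to 421 in SD. It rose against V by 0.44 in WT (adjusted p = 4.3e-08), 0.48 in SA (adjusted p = 7.67e-07) and 0.47 in SD (adjusted p = 3.33e-06) on the log2 scale, calls that held with any library left out. ADAMTS14, a procollagen N-proteinase, was near the detection limit, at 0 to 0.637 CPM in V, and at 3.30, 1.29 and 3.92 CPM in SD, with a log2 fold change of 2.99 (SE 0.58, adjusted p = 0.00145) that was 2.43 to 3.71 with single libraries left out. As 0 V libraries passed the count filter, this is a description of a gene tested only because it is high in SD. PCOLCE2 was also called higher in SD against V.

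Of 22 tested genes of synthesis and folding, 4 were called higher in SD against V and 0 lower, beside the same 2.92% and 2.49% over all genes. PLOD2, a lysyl hydroxylase, was higher by 0.36 on the log2 scale (adjusted p = 0.000192), and SERPINH1, the collagen chaperone of the endoplasmic reticulum, by 0.31 (adjusted p = 0.000747). Neither rise was limited to SD. SERPINH1 was called higher in SA against V (0.26, adjusted p = 0.00156). PLOD2 was called higher in WT (0.18, adjusted p = 0.0209) and SA (0.16, adjusted p = 0.0379). Of 6 fits with a library left out, the PLOD2 call was lost in 4 for WT and 5 for SA. CREB3L1, a membrane-bound transcription factor that acts on collagen I genes in bone, lay at 1.75 to 2.10 CPM in V and 4.95 to 6.51 CPM in SA (log2 fold change 1.60, adjusted p = 0.000263). In SD it lay at 3.60 to 4.81 CPM (1.09, adjusted p = 0.0344), a call lost without V replicates 1, 2 or 3 (0.118, 0.0845 and 0.0738), SD replicate 2 (0.0754) or SD replicate 3 (0.16). The SD call of CREB3L1 was also lost under DESeq2 (0.0513) and with a replicate block (0.0552). P4HA2, a subunit of prolyl hydroxylase, was the fourth.

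Of the collagen receptors, ITGA2, the alpha subunit of a collagen-binding integrin, was higher against V by 0.33 (adjusted p = 0.00377) in WT, 0.39 (adjusted p = 0.000578) in SA and 0.44 (adjusted p = 0.000512) in SD on the log2 scale. MRC2, an endocytic receptor that takes up collagen fragments, was called lower in WT against V. Of the collagen-binding matrix proteins, NID2, which joins laminin to collagen IV, lay at 16.1 to 18.6 CPM in V, 17.9 to 19.5 in WT, 14.3 to 25.2 in SA and 23.7 to 31.4 in SD. Its log2 fold change was 0.62 (SE 0.12, adjusted p = 0.00134) in SD against V and 0.52 (SE 0.12, adjusted p = 0.0338) in SD against WT. The second call was lost without WT replicates 1, 2 or 3 (0.158, 0.0677 and 0.129) or SD replicate 1 (0.188) and in a single fit of all 12 libraries (0.0925). SPARC, a collagen-binding glycoprotein, lay at 0.720 to 1.27 CPM in V and 2.76 to 3.65 CPM in SD (log2 fold change 1.69, SE 0.37, adjusted p = 0.00536), a call lost without V replicate 1 (0.0519). Only 2 of the V libraries passed the count filter, so the SD libraries brought it into the test, and this value too is a description. HSPG2, the basement membrane proteoglycan perlecan, fell in WT against V by 0.17 (adjusted p = 0.0187), a call lost without V replicate 1 (0.0636), V replicate 2 (0.108), WT replicate 2 (0.0778) or WT replicate 3 (0.119). It was also lost in a single fit of all 12 libraries (0.111) and with a replicate block (0.0614).

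**Figure D5:**
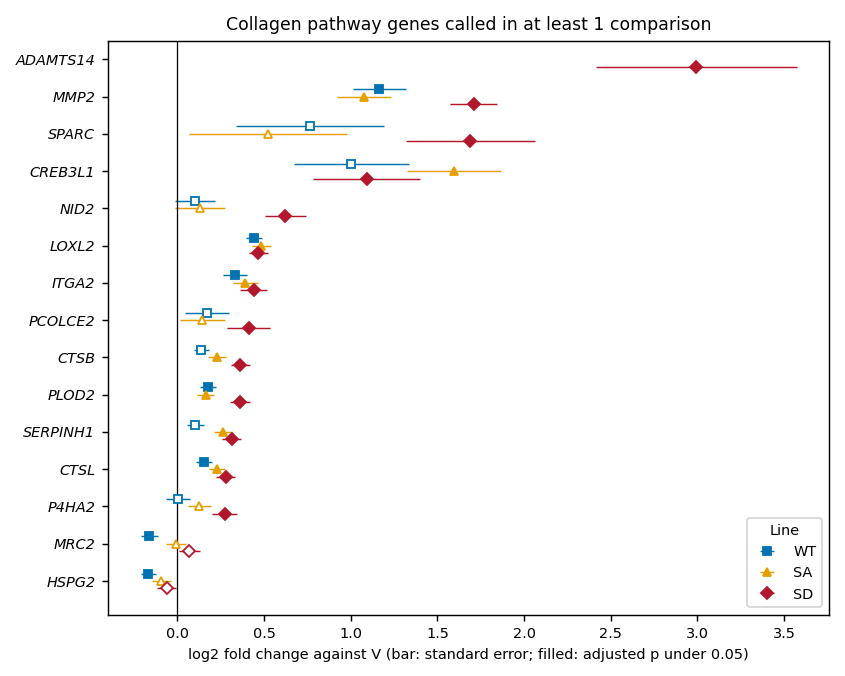
Log2 fold change against V, with standard errors, of the 15 collagen pathway genes called in at least 1 comparison, for WT (squares), SA (triangles) and SD (diamonds); filled symbols have an adjusted p under 0.05. ADAMTS14 was tested against V only in SD (2.99), MMP2 was called in all 3 lines (1.16, 1.08 and 1.71), and HSPG2 and MRC2 were called only in WT, where they were lower. The share of all genes called in at least 1 comparison was not counted.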

How the data were processed

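RNA sequencing libraries of 4 A549 sublines, 3 per line, were analysed from the gene table that the authors deposited, whose values are RSEM expected counts. Per the labels and the study's methods, the reads were trimmed with Trimmomatic 0.39 and counted with RSEM on GRCh38, and the annotation release and strandedness were not given in the sources used here. The second deposited table, which holds only the authors' own fold changes and p-values, was not used. Expected counts were rounded, and every comparison used the 6 libraries of its lines alone, in edgeR 4.0.16 (filterByExpr with a minimum count of 10 and a total of 15, TMM factors, quasi-likelihood test), with p-values adjusted by Benjamini-Hochberg over all genes tested. CPM used TMM-scaled library sizes, and levels between genes were divided by the length of the GENCODE 44 canonical transcript. The counting error behind each value follows from 7844045 to 11765576 counts per library, and no 2 libraries were identical (0 pairs). Alternatives were a filter of at least 1 count or of 10 counts in every library, DESeq2 size factors, DESeq2 1.42.0, a single fit of all 12 libraries, a replicate block, and each library left out. Values in every library are given for collagen genes called at least once and for the 6 of highest CPM per kb, and values of pathway genes for the 12 of smallest adjusted p. The members and lists were chosen with earlier results of these data known.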

Additional observations from a re-analysis of the deposited data

How the results depend on the processing

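Of the 39 calls of collagen genes in the 6 comparisons, 22 held under every alternative and with each library left out, and 30 held under every alternative that kept all libraries. COL17A1 gave 3 of the calls, on a filter that it passed only through the lines with AHR. The 12 pathway genes of smallest adjusted p gave 28 calls, of which 19 held under all of these. The calls of MRC2, P4HA2 and PCOLCE2 were not followed singly under the alternatives. Of the 81 tests that were not called, 30 changed sign and 8 were called under some alternative. In SD against WT the number of collagen genes called was 4, and 7 when every gene with at least 1 count was tested; with single libraries left out it was 3 to 6. In SD against SA it was 4, and 0 without SA replicate 2, SA replicate 3, SD replicate 1 or SD replicate 2 (range 0 to 4). In WT against SA it was 0, 2 when every gene with at least 1 count was tested, and 0 with any library left out. In WT against V it was 11 (6 without V replicate 1, range 6 to 11), in SA against V 11 (6 without SA replicate 2 and 7 without V replicate 1 or V replicate 2, range 6 to 8), and in SD against V 9 (range 7 to 8). COL5A1 in WT against V, which was not called, changed sign without WT replicate 1 (log2 fold change -0.049, range -0.049 to 0.067). The causes were not tested. Depth limits the 24 collagen genes with at most 14 counts in any library.

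Over all genes kept by the filter, the correlation of deviations between same-numbered libraries of 2 lines was -0.0375 to 0.106. It passed 0.1 in only 1 of 18 cases. Taken over all genes, it cannot decide whether same-numbered libraries share a deviation in the collagen genes, whose sum was highest in replicate 1 of every line. With the replicate block the number of collagen genes called was 7 in SD against WT, 5 in SD against SA, 1 in WT against SA, 10 in WT against V, 11 in SA against V and 8 in SD against V.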
